A study of Mus musculus with 9 samples.

Results

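This account compares conventional type 1 dendritic cells (cDC1) from lymph nodes that drained a pancreas with precursor lesions with cDC1 from the same kind of node in healthy mice. It covers 6 of the 9 libraries of the series: 3 labelled PanIN (pancreatic intraepithelial neoplasia, the precursor of ductal pancreatic cancer) and 3 labelled Healthy, chosen by the stage in the labels. All 6 came from mouse lymph nodes next to the pancreas, and the other 3, labelled Tumor, helped to estimate the spread between libraries and are given only as a reference. KPC, which the series title names, is a mouse model of ductal pancreatic cancer. The alleles, the driver that restricts them to a tissue, the genotype and age of the Healthy mice, and how the cells were sorted do not appear in the labels. Nothing in the labels says that libraries came from separate animals rather than pools, so the p-values reflect the spread among these libraries alone, and that spread could be technical.

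cDC1 capture material from dying cells and present it on MHC class I to CD8 T cells. In a lymph node, resident cDC1 lie beside migratory cDC1 that have carried antigen from the organ and have matured on the way. Maturation is marked by the homing receptor Ccr7 and by costimulatory molecules, and is tied to NF-kB signalling. A node near the pancreas also receives lymph from the gut, so its dendritic cells are exposed to more than the pancreas.

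The libraries held 32150281, 45948090 and 68934430 estimated counts in Healthy 1 to 3 and 35424553, 36894434 and 43144289 in PanIN 1 to 3. Levels below are CPM, which are counts scaled to a common library size, here with TMM factors. None of the 14 cDC1 marker genes was at 0 in any of the 6 libraries, and their summed level was 4826 to 16901 CPM in Healthy and 6282 to 12253 CPM in PanIN. Healthy 2 and Healthy 3 stood apart: over these 6 libraries they lay at the opposite ends of the first principal component, which held 41.6% of the variance. Mitochondrial ribosomal RNA took 2.77% of the counts in Healthy 3 and 0.486% in Healthy 2, against 0.456% to 1.26% in the other 4. Healthy 1 and PanIN 1 share a code in their titles, whose meaning the labels do not give. The results below are therefore given by library.

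No gene passed once p-values were adjusted. Of 24133 genes, 0 were called lower in PanIN (0%) and 0 higher (0%) by the quasi-likelihood test of edgeR (Benjamini-Hochberg), whose smallest adjusted p was 0.236. At an unadjusted p under 0.05 it gave 1364 genes lower (5.65%) and 1163 higher (4.82%). DESeq2 called 21 lower (0.087%) and 165 higher (0.684%) at an adjusted p under 0.05. All 3 PanIN libraries lay below all 3 Healthy libraries in 1160 genes (4.81%) and above them in 1785 (7.4%). Every gene named below is a description of its values, and none is called by edgeR.

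The groups also differed in which transcripts of a gene the counts fell on. Many genes have an annotated transcript that keeps an intron, is not translated in full and tends to stay in the nucleus or to be degraded. Counts assigned to such retained-intron transcripts made up 4.79%, 3.61% and 4.73% of all counts in Healthy 1 to 3 and 5.76%, 6.53% and 6.93% in PanIN 1 to 3. The groups did not overlap, with means of 4.38% ± 0.66 and 6.41% ± 0.60 (SD, n = 3), and PanIN 1, which shares a title code with Healthy 1, was above it as well. The exact two-sided permutation test gave p = 0.1, the smallest value that 3 libraries against 3 allow. The Tumor libraries stood at 6.09%, 5.32% and 6.56%. Transcripts annotated as targets of nonsense-mediated decay, the pathway that destroys messages with an early stop, took 2.80% ± 0.15 of counts in Healthy and 3.21% ± 0.04 in PanIN, with the same exact permutation p = 0.1. The deposited quantification divides reads among overlapping transcripts by a model, so the share of a single transcript is less certain than the level of its gene.

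The following 7 genes, among those with the largest difference in mean retained-intron share, are shown by the start of the intron that their most abundant retained-intron transcript keeps. They were chosen after their values were seen, among genes with at least 1000 counts in each of the 6 libraries and without overlap between the groups, with a single chromosome left out of the choice. Each sequence runs from 10 exon bases in lower case into 20 bases of the kept intron in capitals, read from GENCODE M21 transcripts of GRCm38. They are shown because these capitals are letters that a fully spliced message lacks.
Slc1a5: tcaccatcctGTGAGTGCCAGGGGCTGTGG
Srsf3: ctcggcgcagGTACTTGAGAGAGCACCTTT
Arhgap4: ctatattacgGTGGGGCTGGACAGGTGGGA
Fibp: caacttcaagGTCCGTTGCCCTGTGCAGAC
Uba7: atgggatcctGTGAGTGGCCCCACATCGCG
Farsa: agcccagaagGTACAGCTTGGCCTGGGCAG
Ppid: tcattataagGTAAAGAAAAATTCTTGTTT

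All 7 kept introns begin with GT and end with AG, the usual ends of an intron. The Srsf3 intron lies at chr17:29038625-29040774 on the plus strand and is 2150 bases long. The Slc1a5 intron, at chr7:16795953-16796023 on the plus strand, is 71 bases long, and the Uba7 intron, at chr9:107977476-107977851 on the plus strand, 376 bases. The others lie at chrX:73900184-73900277 (Arhgap4, minus strand), chr19:5463851-5464128 (Fibp, plus strand), chr8:84867649-84867749 (Farsa, plus strand) and chr3:79595309-79597684 (Ppid, plus strand). The transcript shown need not hold most of a gene's retained-intron counts, and the shares below cover all such transcripts. For Uba7 it held 19.4 to 42.5 CPM in PanIN, against a mean of 122 CPM (without TMM factors) over all of them. For Srsf3 it held 20.9 to 61.6 against 112, for Fibp 6.34 to 8.50 against 23.7, and for Slc1a5 54.8 to 151 against 109.

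Srsf3 encodes a splicing factor of the serine- and arginine-rich family. The share of its retained-intron and coding counts that fell on retained-intron transcripts was 39.1%, 5.88% and 21.9% in Healthy 1 to 3 and 56.1%, 78.6% and 77.0% in PanIN 1 to 3. Its gene level had a log2 fold change of 0.12 (edgeR unadjusted p = 0.665), so the difference showed in which transcript was counted. Slc1a5, a glutamine and neutral amino acid transporter, had 46.8%, 14.2% and 33.3% in Healthy and 100%, 100% and 97.4% in PanIN. Counts on its coding transcripts averaged 40.6 CPM (without TMM factors) in Healthy and 1.39 in PanIN, while those on its retained-intron transcripts averaged 16.3 and 109. Uba7, the enzyme that activates the interferon-induced modifier ISG15, had 65.8%, 41.9% and 81.0% in Healthy and 87.2%, 100% and 100% in PanIN. Its coding transcripts averaged 18.5 CPM in Healthy and 4.21 in PanIN, and its retained-intron transcripts 33.4 and 122. For Uba7 the gene level was higher in PanIN, with a log2 fold change of 1.11, while the coding part of it was lower.

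Farsa, a subunit of the phenylalanine tRNA synthetase, had a share of 9.60%, 5.04% and 11.2% in Healthy and 29.1%, 42.5% and 44.8% in PanIN. Ppid, a cyclophilin that works with Hsp90, had 17.2%, 10.1% and 21.0% against 36.0%, 49.2% and 51.8%. In both genes PanIN 1 was the lowest PanIN library. Fibp, which binds fibroblast growth factor, stood at 16.4% ± 6.48 in Healthy and 49.8% ± 9.40 in PanIN (SD, n = 3), and Arhgap4, a GTPase-activating protein, at 21.8% ± 19.7 and 57.8% ± 3.50. Healthy 1 was the highest Healthy library for Arhgap4, at 44.3%.

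Over the 6685 genes with enough counts on such transcripts, the share was above that of all Healthy libraries in all 3 PanIN libraries in 1278 genes (19.1%) and below it in 133 (1.99%). Among the 2965 genes with at least 1000 counts per library these were 796 (26.8%) and 52 (1.75%). The mean share was higher in PanIN in 4679 genes (70%), and the median log2 ratio of retained-intron to coding counts differed by 0.69. By limma with Benjamini-Hochberg adjustment no gene passed on this ratio (0 of 6685, 0%), while an unadjusted p under 0.05 was reached by 870 genes with a higher ratio (13%) and 65 with a lower one (0.972%). Healthy 2 bore on the size: without it the median was 0.34. Of the 474 measured genes whose level was higher in PanIN at an unadjusted p under 0.05, 115 (24.3%) had the share above without overlap. Of the 503 whose level was lower at that p, 37 (7.4%) did. Gene level includes the counts on retained-intron transcripts, so a rise in these lifts both the share and the level. This contrast is therefore in part built in, and whether share and level moved together apart from that was not tested. Within the shared title code, PanIN 1 was above Healthy 1 in 3763 genes (56.3%). Across libraries the median share per gene overlapped, since Healthy 3 was at 7.53% and PanIN 1 at 7.15%.

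Splicing factors of the Srsf family were among the genes with this pattern. Of 7 measured with at least 1000 counts, 6 had a higher mean share in PanIN, against 70% of the 6685 genes. Those 6685 also hold genes with fewer counts, and the lean was larger at high counts. The median difference in log2 ratio was 0.81 with at least 1000 counts, against 0.69 over all 6685. In 3 of the 7 Srsf genes (Srsf2, Srsf3 and Srsf11) the groups did not overlap. Of all genes with at least 1000 counts, 26.8% were above without overlap. Srsf11 stood at 42.5% ± 4.37 in Healthy and 65.8% ± 5.74 in PanIN (SD, n = 3). Srsf1 did not follow, at 11.9% ± 1.80 and 10.1% ± 1.42. The pattern was not general. Uvrag, which acts in autophagy, had 31.5%, 54.1% and 39.7% in Healthy and 21.2%, 21.5% and 27.3% in PanIN, so its PanIN libraries were all lower. The gene levels of the 23 measured spliceosome genes had a median log2 fold change of 0.04. At an unadjusted p under 0.05, 3 were higher and 0 lower, against 4.82% and 5.65% of all genes. The 3 higher ones were Srsf5 (0.83, SE 0.28), Snrnp70, a U1 protein (0.68, SE 0.24), and Sf3b1, a U2 protein (0.69, SE 0.29), all as log2 fold changes with edgeR adjusted p of 0.457 or 0.458. For Srsf5, counts on retained-intron transcripts averaged 35.0 CPM (without TMM factors) in Healthy and 150.5 in PanIN. Those on its coding transcripts averaged 133 and 157, so most of its difference lay on retained-intron transcripts.

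**Figure D1:**
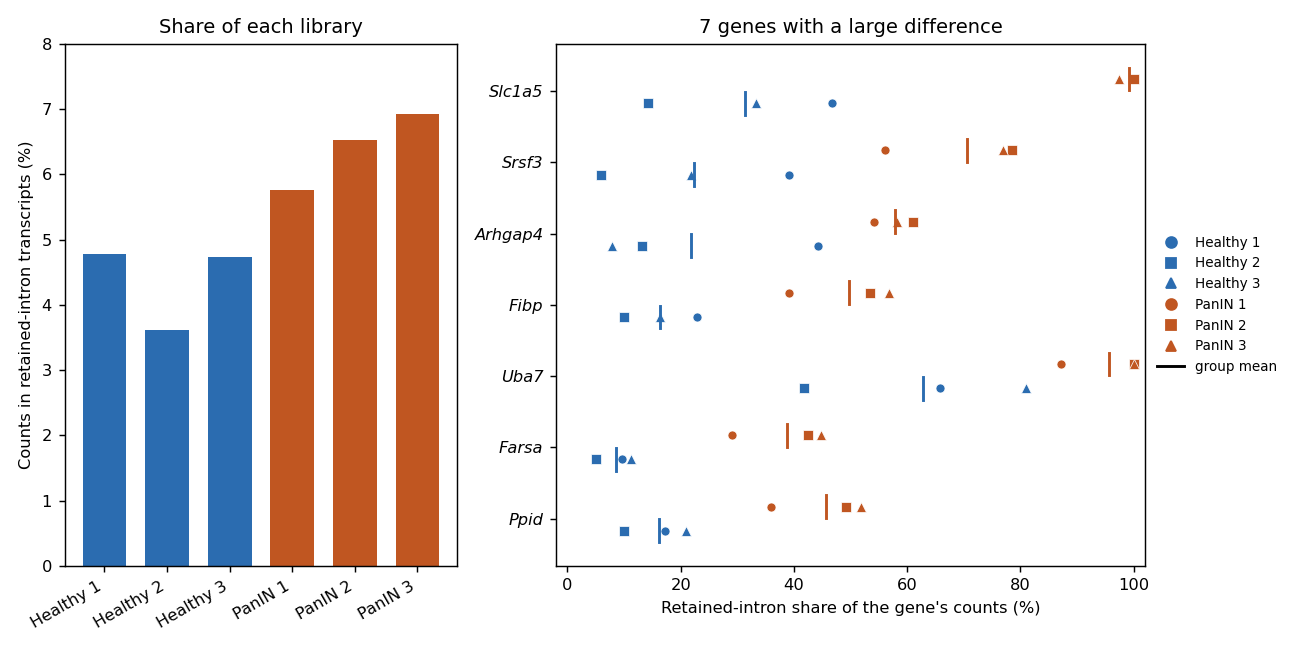
The left panel plots the percent of each library's counts on retained-intron transcripts, and the right panel that share within each of 7 genes, as points by library with a line at the group mean. PanIN libraries run from 5.76% to 6.93% and Healthy libraries from 3.61% to 4.79%.

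The named genes lower in PanIN included metabolic enzymes, adhesion molecules and transcription factors, most of them at low levels. The 20 protein-coding genes with the smallest p among those without overlap had PanIN means under 10 CPM in 13 cases. They come from a pool of 494 such genes, and among protein-coding genes of at least 1 log2 CPM all 3 PanIN libraries lay below all Healthy libraries in 4.19% and above them in 7.85%. In all 20, each Tumor library was also below each Healthy library, a comparison that uses the same Healthy libraries. Healthy 3 was the highest Healthy library in 19 of the 20 and Healthy 2 the lowest in 15.

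Glul, which makes glutamine from glutamate and ammonia, had the smallest p of the 20 (ENSMUSG00000026473, GRCm38 chromosome 1, 153899944 to 153909723). It stood at 208, 304 and 304 CPM in Healthy 1 to 3 and at 161, 141 and 120 CPM in PanIN 1 to 3, with means of 272 ± 55.5 and 141 ± 20.5 (SD, n = 3). The groups did not overlap, and here Healthy 2 was as high as Healthy 3. The log2 fold change was -0.95 (SE 0.24, edgeR adjusted p = 0.329), and DESeq2 called the gene (adjusted p = 0.0266).

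Asph, a hydroxylase of the endoplasmic reticulum that also yields calcium-handling proteins, stood at 36.5, 34.5 and 48.3 CPM in Healthy and 21.8, 23.7 and 20.2 CPM in PanIN. Enpp5, of the ectonucleotide phosphodiesterase family, stood at 28.5, 43.2 and 52.1 against 22.4, 22.0 and 23.1 CPM. Adcy9, an adenylate cyclase that makes cyclic AMP, stood at 16.6, 13.6 and 23 against 6.67, 10.7 and 7.45 CPM. In none of these 3 did the groups overlap. Their log2 fold changes were -0.86 (SE 0.23), -0.88 (SE 0.24) and -1.10 (SE 0.31). Trim32, an E3 ubiquitin ligase, stood at 28.8 ± 11.5 CPM in Healthy and 14.1 ± 0.983 in PanIN (SD, n = 3), with Healthy 3 at 42.1.

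Irs1, the adaptor that links the insulin receptor to PI3 kinase, stood at 6.07, 3.65 and 14.6 CPM in Healthy and 2.78, 2.43 and 2.04 CPM in PanIN. Jakmip2, a coiled-coil protein, stood at 8.84, 6.06 and 18 against 4.54, 2.61 and 2.47 CPM. Slitrk3, a neuronal adhesion protein, stood at 8.84, 4.54 and 18 against 3.86, 2.45 and 2.99 CPM. These 3 share a shape: Healthy 3 was the highest library and Healthy 2 the Healthy library nearest to PanIN. Their log2 fold changes were -1.75 (SE 0.50), -1.78 (SE 0.46) and -1.76 (SE 0.49), and DESeq2 called all 3, with adjusted p of 0.0488, 0.0202 and 0.0381. It also called Zfp532 (-1.72) and Pcdhga9 (-1.66), so 6 of the 20 in all, against 0.087% of all genes called lower. The 20 were chosen in the same libraries, so these calls are no separate evidence. Pcdhga9 belongs to a cluster of protocadherins with shared exons, which makes its counts uncertain, and the direction of Zfp532 turned when TPM was used (0.14 on the log2(TPM + 1) scale).

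Transcription factors in the group were Meis2, a homeobox gene, at 13.1 ± 6.47 CPM in Healthy and 4.91 ± 1.47 in PanIN, and Sall2, a zinc finger gene, at 19.7 ± 5.88 and 9.80 ± 1.43 (SD, n = 3). The glycolytic aldolase Aldoc stood at 74.5, 61.3 and 121 CPM in Healthy and 55.1, 38.8 and 39.4 CPM in PanIN. Eno1b had a log2 fold change of -1.54, but it is a near copy of the enolase gene Eno1, so its counts are uncertain. The other members were Scamp1, Khdrbs3, Tceal6, Tmem63c, Rundc3a and Lrtm1, with log2 fold changes between -2.13 and -1.07. The rule on the largest differences added Zfp334 (-1.83), Elfn1 (-1.80) and Slc16a11 (-1.74).

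**Figure D2:**
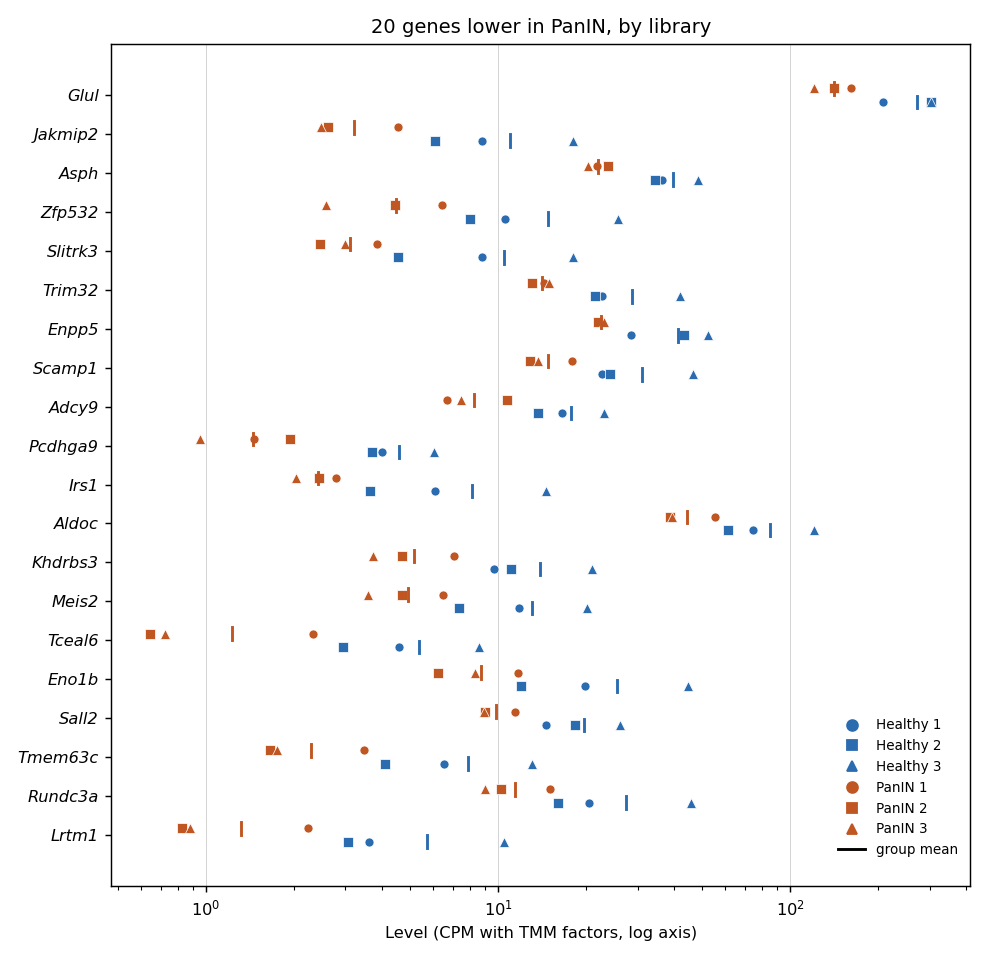
Levels in CPM on a log axis for the 20 genes with the smallest p among those lower in PanIN, as points by library with a line at each group mean. No gene overlaps between the groups, and Healthy 3 is the highest library in 19 of the 20.

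Gp2 and Ctse had the smallest p-values among the lower genes that the gene lists brought in. Gp2, a surface glycoprotein of pancreatic acinar cells and of gut M cells that also binds bacteria, stood at 2.73, 3.36 and 3.00 CPM in Healthy and 1.13, 0.697 and 0.543 CPM in PanIN. It differed from the 20 genes above in the Tumor libraries, which were the highest at 6.36, 4.82 and 4.90 CPM, so PanIN was the lowest stage. Its log2 fold change was -1.94 (SE 0.45, edgeR adjusted p = 0.304), and DESeq2 called it (adjusted p = 0.0023). Of the 17 acinar genes listed 11 passed the count filter, of which 7 were positive and 4 negative. At an unadjusted p under 0.05 there were 4 higher members, against 4.82% of all genes, and 1 lower, Gp2, against 5.65%. Without overlap 4 were above and 1 below, against 7.4% and 4.81% of all genes. Some of the others were near 0 in Healthy and passed through the libraries in which they were high. Ctrb1, a chymotrypsinogen that went the opposite way to Gp2, stood at 0.0291, 0.0262 and 0.268 CPM in Healthy and 6.21, 3.67 and 1.11 CPM in PanIN. The summed level of the 11 acinar genes that passed was 4.75 to 8.10 CPM in Healthy and 6.16 to 16.7 CPM in PanIN. Prss1, which did not pass, was at 0 in all 6 libraries. The part of acinar RNA in these values was not tested. Ctse, an endosomal aspartic protease, overlapped between the groups: Healthy 1, at 6.13 CPM, lay within the PanIN range of 3.67 to 7.46, and Healthy 2 and Healthy 3 stood at 209 and 77.9.

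Genes lower in PanIN as a class leaned on Healthy 3. Among the 1364 genes lower at an unadjusted p under 0.05, Healthy 3 was the highest Healthy library in 1268 (93%), against 43.1% of all genes, and Healthy 2 was the lowest in 1180 (86.5%), against 46.8%. Their median level was 12.8, 6.69 and 24.6 CPM in Healthy 1 to 3 and 8.98, 5.96 and 5.03 CPM in PanIN 1 to 3, which puts Healthy 2 between PanIN 1 and PanIN 2. The groups did not overlap in 357 of them (26.2%), against 916 (78.8%) of the 1163 genes higher at the same p. Without Healthy 3 the fit gave 354 lower genes, of which 136 were among the 1364, and 1040 higher. The count of lower genes was 392 without PanIN 2, 336 without PanIN 3 and 3076 without Healthy 2.

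These lower genes were long. Their median span on the genome was 65.4 kb, against 20.04 kb for the higher genes and 23.2 kb for all genes tested, and the median of their longest transcript was 4.69 kb, against 3.72 and 3.41 kb. Protein-coding genes made up 86.5% of them, 67.3% of the higher genes and 67.5% of all, and the medians for length were taken over protein-coding genes. GC content of transcripts was 50.3%, 50.2% and 49.5%. The length was less marked in the 1160 genes with all 3 PanIN libraries below all 3 Healthy libraries. There the median span was 29.1 kb and the median of the longest transcript 3.53 kb, nearer to all genes tested. Scale mattered for the balance: lower genes were 54% of those at an unadjusted p under 0.05 on counts, and 11.2% on log2(TPM + 1), where the median of all genes moved from -0.104 to 0.108.

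**Figure D3:**
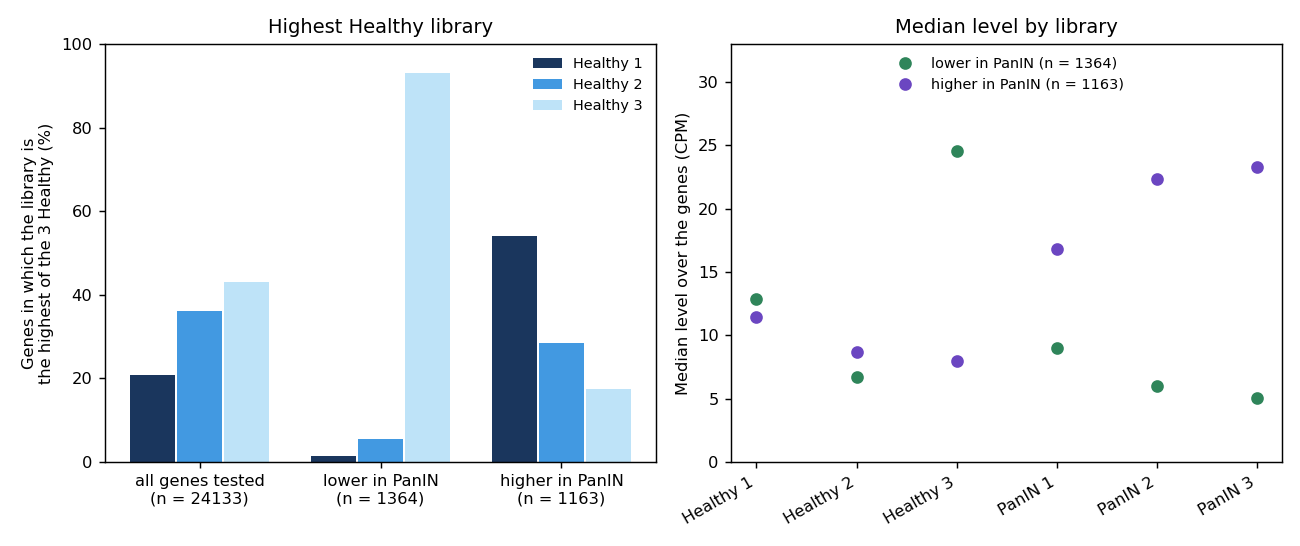
The left panel plots, for all genes and for those lower or higher in PanIN at an unadjusted p under 0.05, the percent in which each Healthy library is the highest of the 3, and the right panel the median level in CPM of both sets by library. Healthy 3 is the highest in 93% of the lower genes, and its median of 24.6 CPM stands above the other 5 libraries.

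Several metabolic lists leaned lower, by small amounts. Of all genes tested 57.5% had a log2 fold change below 0, the share against which the counts below are to be read. The log2 fold change was below 0 in all 42 nuclear genes of oxidative phosphorylation, the respiratory chain of mitochondria. Their median was -0.25, against -0.10 for all genes, yet 0 of 42 reached an unadjusted p under 0.05 and in 0 did the groups separate. Their summed level was 4968, 7666 and 4682 CPM in Healthy and 5106, 4530 and 4844 CPM in PanIN, so the difference lay in Healthy 2, and without it the median was -0.00. The 36 cytosolic ribosomal proteins had the same shape, with 35 negative, a median of -0.38 and, without Healthy 2, -0.02. Both medians turned on the log2(TPM + 1) scale, to 0.13 and 0.03. The tricarboxylic acid cycle, which feeds the respiratory chain, had 18 of 19 members negative with a median of -0.26, 1 member lower at an unadjusted p under 0.05 (5.65% of all genes) and 4 below without overlap (4.81% of all genes). Its median was -0.03 without Healthy 2 and 0.19 on the TPM scale. Pcx, the carboxylase that refills the cycle from pyruvate, stood at 11.9, 11 and 20.7 CPM in Healthy and 10.5, 5.60 and 6.82 CPM in PanIN.

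Fatty acid synthesis and storage had 16 of 20 members negative, a median of -0.22, 3 lower at an unadjusted p under 0.05 and 5 below without overlap, against 5.65% and 4.81% of all genes. Dgat2, which makes the triglyceride of lipid droplets, stood at 9.47, 14.5 and 11.9 CPM in Healthy and 6.94, 4 and 6.54 CPM in PanIN, so Healthy 2 was the highest here. Fads2, a desaturase of polyunsaturated fatty acids, had a log2 fold change of -0.75 (SE 0.32) and Acsl3, which activates fatty acids, -0.98 (SE 0.40). The groups did not overlap in Fads2 and overlapped in Acsl3. The median of this list was 0.08 on the TPM scale. In the list of glutamine and amino acid metabolism 13 of 21 were negative, a share near that of all genes, with a median of -0.12 that was 0.04 without Healthy 2. Besides Glul it held Gpt2, the mitochondrial alanine transaminase, at 14.4, 19.3 and 23.2 CPM in Healthy and 11.6, 12.2 and 11.1 CPM in PanIN. Lysosomal enzymes had a median of -0.06 (0.11 without Healthy 2) with 2 of 24 lower at an unadjusted p under 0.05, Ctse and Ctsf. Ctsf, a cysteine cathepsin, stood at 5.93, 3.38 and 8.90 CPM in Healthy and 2.05, 2.22 and 1.70 CPM in PanIN, without overlap.

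Among receptors for antigen and dead cells, 14 of 22 were negative, near the 57.5% of all genes. Their median was -0.29, which was 0.13 without Healthy 2 and 0.05 on the TPM scale. Lrp1, a scavenger receptor for dead cells, stood at 149, 70.8 and 294 CPM in Healthy and 109, 66.6 and 51.8 CPM in PanIN. Tyro3, another member of this list, stood at 21.7, 10.7 and 40.5 against 17.1, 8.85 and 7.31 CPM. Both overlapped, and Healthy 3 was the highest. Csf1r, the growth factor receptor of macrophages, stood at 14.6, 17.3 and 26.9 CPM in Healthy and 11, 11.8 and 10.8 CPM in PanIN, without overlap. Among cDC2 markers 10 of 13 were negative (median -0.33, and -0.06 without Healthy 3), with Sirpa and Cx3cr1 at an unadjusted p under 0.05. Macrophage and monocyte markers were negative in 11 of 16 (median -0.25, -0.10 without Healthy 3 and 0.03 on the TPM scale), and stromal and endothelial markers in 14 of 16 (median -0.67, and -0.16 without Healthy 3). In bulk samples fewer cells of a type and less RNA per cell cannot be told apart.

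Circadian clock genes had 14 of 19 members negative and a median of -0.38, which was -0.01 without Healthy 3. Nr1d2, a repressor of the clock, stood at 25.1, 21.5 and 34.8 CPM in Healthy and 19.7, 17.2 and 12 CPM in PanIN, without overlap. Hlf and Rora, a target and an activator of the clock, were also at an unadjusted p under 0.05, and Nr1d1 was at -1.04 (SE 0.49). Semaphorins, plexins and guidance receptors were negative in 12 of 20, near the share of all genes (median -0.34, and 0.01 on the TPM scale), with Unc5b (-1.36), Robo1 (-1.18) and Plxna1 (-0.68) at an unadjusted p under 0.05. MHC class II and its machinery had 11 of 16 negative, against 57.5% of all genes, and 0 of 16 at an unadjusted p under 0.05. Its median of -0.15 turned to 0.25 without Healthy 2 and to 0.22 on the TPM scale. The lists for cell cycle, DNA replication, cholesterol, the vacuolar ATPase, actin, immediate early genes, and Notch and Wnt signalling also had 0 members at an unadjusted p under 0.05.

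Outside interferon, the named genes higher in PanIN included regulators of RNA, membrane traffic and ubiquitin. All 10 named by the rule were called by DESeq2, against 0.684% of all genes called higher. They were chosen by edgeR p and lack of overlap in the same libraries, so these calls are no separate evidence. In all 10 each Tumor library was above each Healthy library, a comparison that uses the same Healthy libraries. Zc3h7a, a CCCH zinc finger gene, stood at 75.1, 61.2 and 48.4 CPM in Healthy and 169, 201 and 281 CPM in PanIN (log2 fold change 1.82, SE 0.29, edgeR adjusted p = 0.238). Fnbp4, a formin-binding protein, stood at 50.7, 35.6 and 33.7 against 83.1, 138 and 167 CPM. Trip6, a LIM protein of adhesion sites, stood at 7.93, 7.06 and 5.02 against 16.3, 33.6 and 44.9 CPM. In these 3 genes PanIN 1 was the lowest PanIN library and Healthy 1 the highest Healthy library. Aoc2, an amine oxidase, differed in shape, at 0.698, 1.18 and 1.12 CPM in Healthy and 4.67, 5.24 and 5.28 CPM in PanIN, with little spread in either group (log2 fold change 2.33, SE 0.45).

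Gpr137b, a lysosomal membrane protein, stood at 40.4 ± 13.0 CPM in Healthy and 98.9 ± 7.42 in PanIN, and Zup1, a deubiquitinase of K63-linked chains, at 36.1 ± 3.98 and 77.0 ± 8.75 (SD, n = 3). Acap1, which acts on the GTPase Arf6, had a log2 fold change of 1.51 and the RNA helicase Mov10 one of 1.29. Mndal (1.56) belongs to the interferon-inducible IFI200 family of near copies, so its counts are uncertain, and it stood in neither interferon list. Ankrd16 (1.91) was counted almost wholly on retained-intron transcripts, 88.6% ± 4.70 in Healthy and 97.3% ± 1.22 in PanIN, and over its coding transcripts alone its log2 fold change was -0.08. Of the other 9, the log2 fold change over coding transcripts alone ran from 0.66 (Zup1) to 2.40 (Aoc2).

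**Figure D4:**
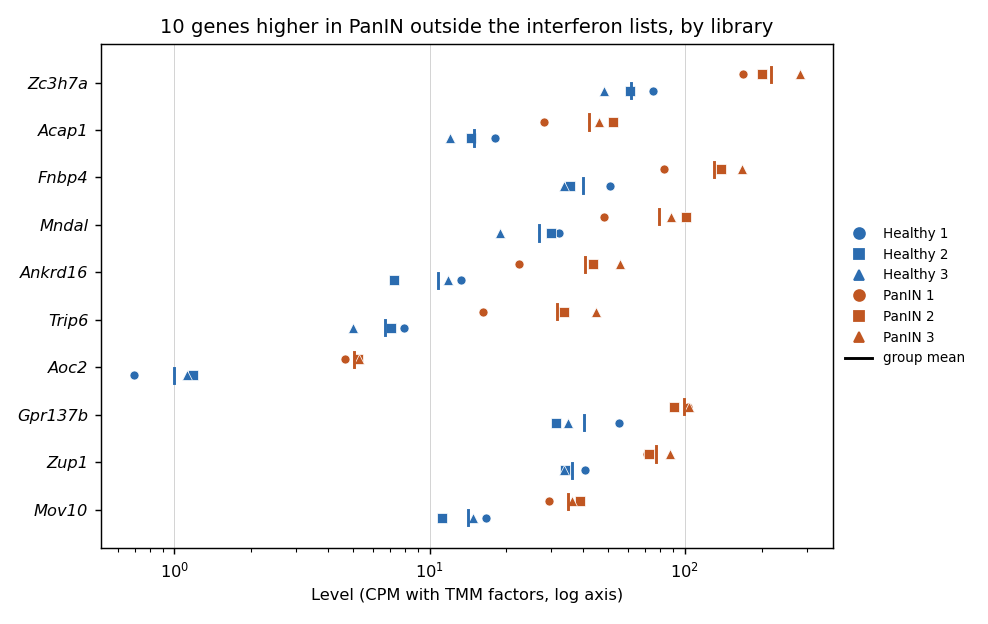
Levels in CPM on a log axis for the 10 genes with the smallest p among those higher in PanIN outside the interferon lists, as points by library with a line at each group mean. No gene overlaps, and Aoc2 is the lowest of the 10, at 0.698 to 1.18 CPM in Healthy and 4.67 to 5.28 CPM in PanIN.

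NF-kB signalling, which drives inflammatory and maturation genes, leaned higher. Of 22 subunits and feedback targets 21 were positive, against 10258 of all 24133 genes, with a median log2 fold change of 0.52. Its members higher at an unadjusted p under 0.05 numbered 7, against 4.82% of all genes, and those above without overlap 7, against 7.4%. Map3k8, a kinase that relays Toll-like receptor signals, stood at 16.7, 11 and 6.33 CPM in Healthy and 31.3, 25.9 and 38.7 CPM in PanIN (log2 fold change 1.5, SE 0.38), and DESeq2 called it (adjusted p = 0.0386). Ikbkb, the kinase that frees NF-kB, stood at 144, 108 and 86.6 against 180, 209 and 204 CPM. Bcl3 (0.84), a nuclear cofactor of NF-kB, also separated. Nfkbiz, another, stood at 26.9, 8.34 and 11.4 against 34.8, 26.7 and 31.9 CPM, with PanIN 2 just under Healthy 1. The median over the list was 0.36 to 0.75 with any library left out and 0.17 without Healthy 2 and Healthy 3 together. Within the shared title code it was 0.19, with all 22 members positive.

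IL-6, JAK and STAT3 signalling had 16 of 21 members positive, a median of 0.40, 4 higher at an unadjusted p under 0.05 and 5 above without overlap, against the same 4.82% and 7.4% of all genes. Socs3, the feedback inhibitor of STAT3 signalling, stood at 14.2, 12.9 and 11.8 CPM in Healthy and 22.1, 30.7 and 37.6 CPM in PanIN (log2 fold change 1.21, SE 0.26, edgeR adjusted p = 0.260), and DESeq2 called it (adjusted p = 0.0119). Pias3 (0.91) and the kinase Tyk2 (0.65) were at an unadjusted p under 0.05, as was Bcl3, which both lists hold.

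Maturation genes were positive in 23 of 25, against 10258 of all 24133 genes, with a median of 0.57. There were 3 higher at an unadjusted p under 0.05 and 3 above without overlap, against 4.82% and 7.4% of all genes. The lean of the list moved with the Healthy libraries. The summed level of the list was 12570, 2139 and 6254 CPM in Healthy and 14653, 10623 and 6688 CPM in PanIN, so Healthy 1 exceeded PanIN 2 and PanIN 3. The median was 1.26 without Healthy 1 and -0.07 without Healthy 2 and Healthy 3. Cd274, the inhibitory ligand PD-L1, stood at 65.0, 20.3 and 42.2 CPM in Healthy and 105, 76.2 and 93.5 CPM in PanIN, without overlap. Il15ra, which presents interleukin 15, stood at 64.2, 15.9 and 28.1 against 125, 51.7 and 89.3 CPM and overlapped, and Traf1, a TNF receptor adaptor, separated at 407, 142 and 215 against 543, 420 and 439 CPM.

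Cytokines and costimulators had 14 of 19 members positive (median 0.19). Tnfsf9, the 4-1BB ligand that costimulates CD8 T cells, stood at 4.53, 1.99 and 2.66 CPM in Healthy and 9.15, 7.12 and 7.47 CPM in PanIN, without overlap, and Il27 at 1.48, 0.630 and 0.878 against 3.54, 1.37 and 4.28 CPM, with PanIN 2 under Healthy 1. Of 21 genes of MHC class I and peptide loading 15 were positive (median 0.19). H2-Q7 and H2-Q4, nonclassical class I genes, separated, at log2 fold changes of 0.96 and 0.82, and are near copies of each other, so their counts are uncertain.

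Lists of cDC1 identity and of apoptosis had medians near 0, most of which moved up without Healthy 2. The 19 cDC1 transcription factors had a median of 0.05, which was 0.45 without Healthy 2 and 0.50 on the TPM scale, and the 14 cDC1 markers one of 0.06, which was 0.66 without Healthy 2. Among the factors was Zbtb46, which marks conventional dendritic cells, at 119, 121 and 77.0 CPM in Healthy and 140, 165 and 235 CPM in PanIN. Batf3, required for cDC1, stood at 84.3, 91.6 and 58.3 against 111, 93.5 and 117 CPM, with PanIN 2 only just above Healthy 2. Zeb2, a factor of other dendritic cells, was at -1.01 (SE 0.42) and overlapped, and its direction turned on the log2(TPM + 1) scale (0.03). The list of growth factor receptors and survival had 15 of 19 members positive, against 10258 of all 24133 genes, with a median of 0.20. From it Csf2ra, a receptor for GM-CSF, and Pik3r5, a PI3 kinase regulator, were at 0.86 and 0.91. Among anti-apoptotic genes Cflar, which blocks caspase 8, stood at 170, 65.6 and 98.9 CPM in Healthy and 249, 228 and 169 CPM in PanIN, where PanIN 3 was just under Healthy 1. Pmaip1 and Bcl2l11, which promote apoptosis, were at 0.72 and 0.67. Anti-apoptotic and pro-apoptotic lists had medians of 0.07 and 0.11, which were 0.12 and 0.33 without Healthy 2. Mdm4, which restrains p53, stood at 104, 74.8 and 69.7 against 161, 213 and 236 CPM (log2 fold change 1.29, SE 0.27), and DESeq2 called it (adjusted p = 0.00487), while the 19 measured p53 targets had a median of 0.03.

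Chromatin and DNA methylation regulators were positive in 20 of 22 with a median of 0.25 and 5 above without overlap, against 7.4% of all genes. The 1 member of 22 higher at an unadjusted p under 0.05 is near the 4.82% of all genes. It was Tet2, which oxidises methylated cytosine, at 50.2, 33.5 and 41.8 CPM in Healthy and 49.9, 80.8 and 86.6 CPM in PanIN. PanIN 1 did not exceed Healthy 1 in Tet2, and within the shared title code the median of the list was 0.03. DNA sensors among the pattern receptors were Aim2 (0.78) and Tmem173, which encodes STING (0.57), while the list had a median of 0.20. For reference, the type I interferon list had 42 of 42 positive with a median of 1.13.

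**Figure D5:**
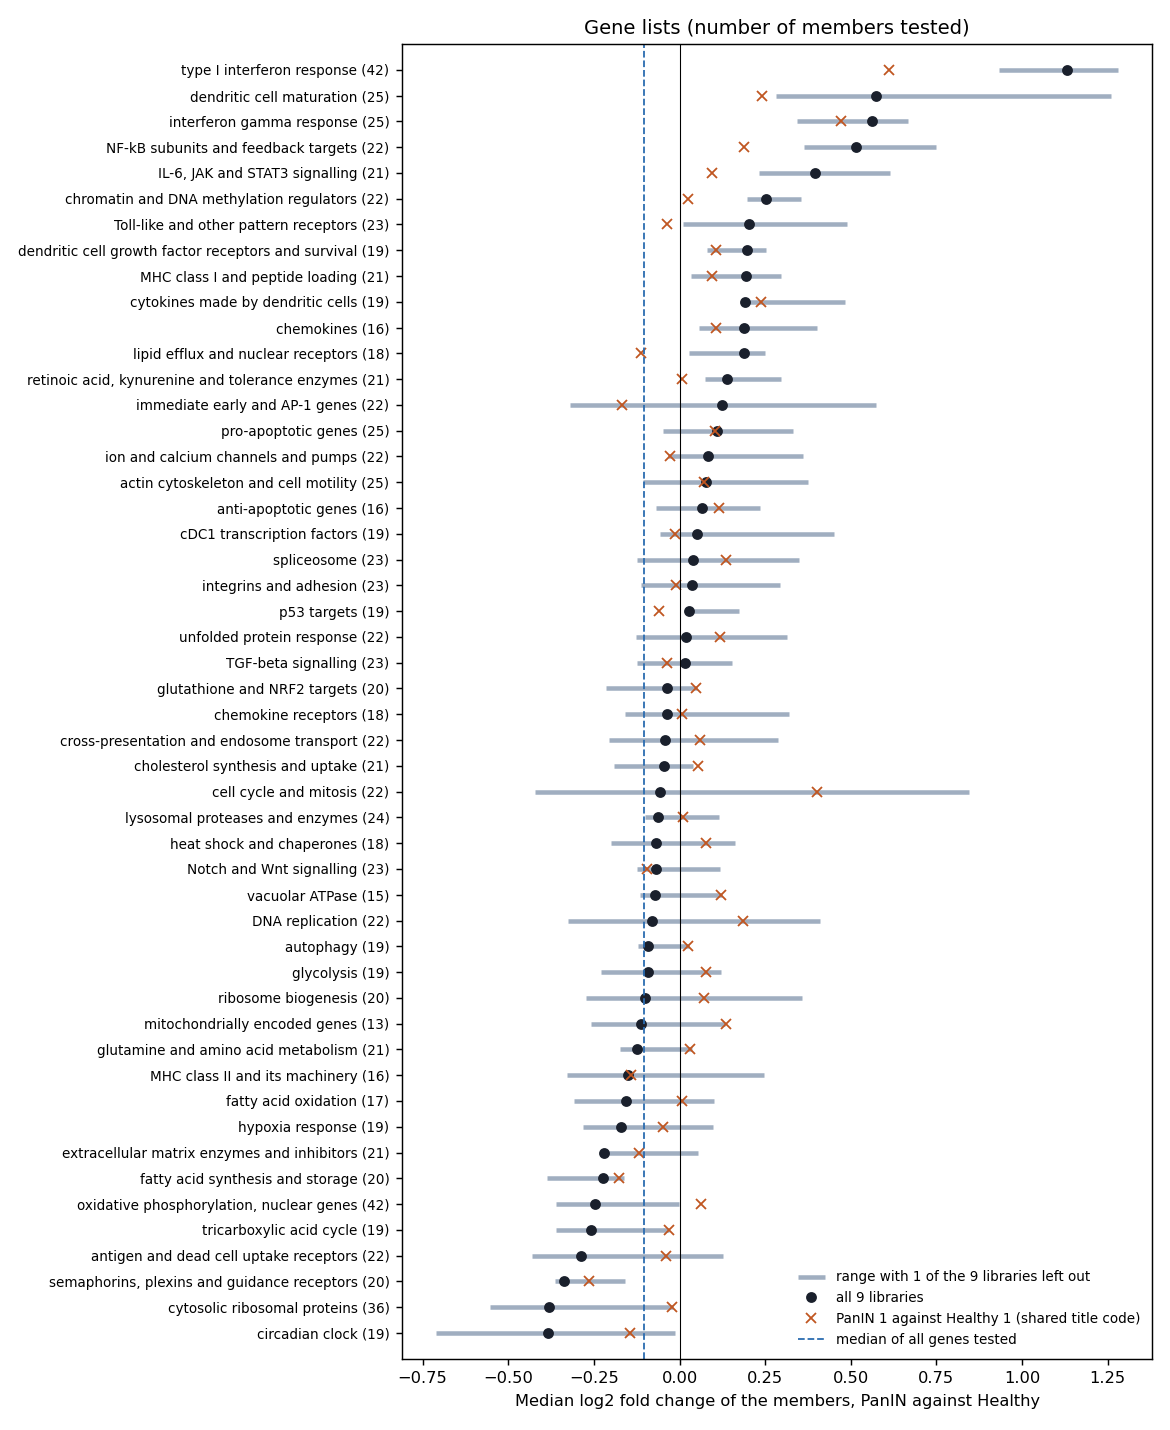
Each line is a gene list with its number of members tested, the point its median log2 fold change of PanIN against Healthy, the grey bar the range of that median with 1 of the 9 libraries left out, and the cross the median of PanIN 1 against Healthy 1. The dashed line marks the median of all genes, -0.10, and oxidative phosphorylation at -0.25 reaches -0.00 when a library is left out.

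Markers of other cells differed between the PanIN libraries. The 8 of 12 neutrophil markers that passed the count filter summed to 2.83 to 5.91 CPM in Healthy and to 4.40 in PanIN 1. In PanIN 2 and PanIN 3 they summed to 46.6 and 33.7 CPM. Some of these markers were near 0 in Healthy and PanIN 1 and passed through the libraries in which they were high. S100a8, for example, stood at 0.0262 to 0.159 CPM in Healthy and at 0.054, 7.64 and 5.71 CPM in PanIN 1 to 3. Elane, which did not pass, was at 0 in all 6 libraries. The 17 of 18 B cell markers that passed the count filter summed to 349 to 743 CPM in Healthy and to 481, 1204 and 531 CPM in PanIN 1 to 3. They had a median log2 fold change of 1.52, which was 0.20 without PanIN 2. Plasma cell markers summed to 132 to 229 CPM in Healthy and 334 to 446 CPM in PanIN, without overlap, and 11 of 11 were positive. The part of these cells in the higher genes above was not tested.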

How the data were processed

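RNA from 9 libraries was measured by directional RNA-seq, per the labels' protocols, and 3 PanIN and 3 Healthy libraries were compared. Per transcript, the authors deposited estimated counts and TPM. The submitters' processing notes name Salmon and mm10; its version, its settings and the use of strand are not given in these sources. Of 136288 transcripts, 136176 matched the GENCODE M21 annotation (at least 99.963% of each library's counts), and estimated counts were summed to 53458 genes and rounded. The 24133 genes passing filterByExpr (minimum count 10, minimum total 15) were tested with edgeR 4.0.16 in R 4.3.3: TMM factors (0.83 to 1.19), a quasi-likelihood model of group alone on the 9 libraries, and Benjamini-Hochberg adjustment at 0.05. The biological coefficient of variation was 56.5%. DESeq2 1.42.0, limma 3.58.1 and other settings were alternatives. Python 3.11.15, pandas 2.3.3 and matplotlib 3.10.9 made the tables and figures.

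Retained-intron shares were computed after seeing the data, as counts on transcripts annotated retained intron over those plus protein-coding transcripts, for 6685 genes with at least 50 counts in each of the 6 libraries and at least 10 retained-intron counts. Their log2 ratio (offset 0.5) was tested with limma over 9 libraries.

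Tested on simulated counts for PanIN against Healthy (24133 genes), edgeR recovered 10.4% of changes of 2-fold, 77.6% of those of 4-fold and 89.4% of those of 8-fold. For the ratio (6685 genes), limma recovered 21% of simulated log2 changes of 2 and 68% of those of 4.

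The comparison, the 65 gene lists, of which 15 are cell type markers, and the rules were chosen with earlier results of these data known. No list was tested as a set. Named were, among protein-coding genes of at least 1 log2 CPM without overlap between groups, the 20 lower genes with the smallest p, the 10 lower with the largest difference and the 10 higher outside the interferon lists with the smallest p, plus up to 4 genes with the smallest p from each list. The rule skips predicted genes and receptor segments, and some genes it covers are not reported here.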

Additional observations from a re-analysis of the deposited data

How the results depend on the processing

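No paired analysis was possible because the labels carry no replicate numbers and tie only 1 library of each group together, by a title code. A term for that code left 0 lower and 0 higher genes at an adjusted p under 0.05, and 1354 lower and 1235 higher at an unadjusted one. At an adjusted p under 0.05, lower and higher genes numbered 0 and 0 in edgeR with all 9 libraries, 21 and 165 in DESeq2, 15 and 108 with no filter on low counts, 2014 and 1395 in limma-voom with sample weights (0.17 for Healthy 2 and 0.27 for Healthy 3, 4.32 for Healthy 1), 1 and 3 on log2(TPM + 1), 1 and 2 on log2(TPM + 0.1), 0 and 1 with a term for Ccr7, and 0 and 3 without Healthy 2 and Healthy 3. With single libraries left out they ran from 0 to 3 and from 0 to 4. At an unadjusted p under 0.05, against 1364 lower and 1163 higher, the counts were 4148 and 3479 in limma-voom, 333 and 2647 on log2(TPM + 1), 289 and 2671 on log2(TPM + 0.1), 2088 and 1348 with no filter, 832 and 812 with the 6 libraries alone, 668 and 728 over protein-coding transcripts alone, 2730 and 1898 with a term for Ccr7, and 814 and 687 without Healthy 2 and Healthy 3. With single libraries left out they ran from 336 to 3076 lower and from 720 to 2145 higher. The cause of these shifts was not tested. The terms for Ccr7, the pair of Healthy libraries and the coding transcripts were chosen after seeing the data.

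The retained-intron ratio gave 870 higher and 65 lower genes at an unadjusted p under 0.05, 469 to 1092 and 49 to 112 with single libraries left out, 446 and 61 without Healthy 2 and Healthy 3, and 650 and 20 among genes with at least 1000 counts. Its median difference was 0.34 to 0.86 with single libraries left out.

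Of 2047 values of 89 named genes over 22 alternatives and the shared title code, 2041 kept their direction. Those that turned were Zfp532 (0.21 on log2(TPM + 0.1), 0.14 on log2(TPM + 1)), Zeb2 (0.0405 and 0.0347), Ankrd16 over protein-coding transcripts (-0.0803) and Tet2 within the shared title code (-0.0093). The 89 genes were chosen for a small p or lack of overlap in these same libraries. That few values turned is therefore no separate evidence for their directions. On log2(TPM + 0.1) the median of all genes was 0.23, against -0.10 on counts, so directions of lists near 0 depend on the scale. Every library held at least 32150281 counts, and at the spread between 3 libraries most simulated 2-fold differences went undetected.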
